A study of Homo sapiens with 14 samples.

Results

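The 10 S100 genes described here are S100A2, S100A4, S100A6, S100A8, S100A9, S100A10, S100A11, S100A13, S100A14 and S100P, selected on their values in the same RNA-seq tables and found by gene symbol among 24199 features in DU145 cells and 44591 genes in LNCaP cells. They are 10 of the 21 S100 genes that the DU145 table lists. DU145 is a prostate cancer cell line with no androgen receptor signalling, and LNCaP is a prostate cancer cell line that depends on androgen. In DU145 cells, 3 libraries of cells with a non-target control hairpin (shCON) were compared with 3 libraries of cells with stable, lentiviral knockdown of the transcription factor PAX6 (shPAX6), all under puromycin selection. The study made stable lines with a pair of PAX6 hairpins and does not say in its labels which hairpin each library carries. In LNCaP cells, 1 library of parental cells (control) was set beside 1 library of cells labelled resistant to enzalutamide (ENZ), an androgen receptor antagonist given at 20 µM for 30 days. The DU145 libraries asked what changes when PAX6 is reduced in a neuroendocrine-like line, and the LNCaP libraries what changes as androgen-dependent cells come to grow under the drug. Because the genes were picked with these comparisons in view, their differences are given as a description without a test.

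S100 proteins are small calcium sensors that pair into dimers, and most change shape when calcium rises and then hold on to a partner protein. Inside cells they act on annexins at the membrane, on myosin and on p53, and several leave the cell without a signal peptide and act as alarm signals on receptors such as AGER (RAGE) and TLR4. Most S100 genes lie in a cluster on the long arm of chromosome 1, in the epidermal differentiation complex, and in prostate and other epithelia they are known as markers of cell state, inflammation and invasion.

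Promoter sequence is shown for 3 of the genes, since the results turn on them: S100A9 had the largest difference in DU145 cells, S100A4 was the other member that was lower, and S100A11 was the most abundant member in LNCaP cells. The letters are the bases before the transcription start, taken from RefSeq's promoter table and placed by exact match on the GRCh37 genome. They are written 5′ to 3′ on the strand of the gene, and capitals mark the TATA box letters TATAAA and the GC box letters GGGCGG, the latter on either strand. The S100A9 window lies at chr1:153330080-153330329 on the plus strand, the S100A4 window at chr1:153518283-153518532 on the minus strand, and the S100A11 window at chr1:152009512-152009730 on the minus strand. The S100A9 and S100A4 windows hold 250 bases and end at the RefSeq start. The S100A11 window holds 219 bases and stops 31 bases short of that start, since the deposited LNCaP table places those 31 bases inside the gene.
S100A9: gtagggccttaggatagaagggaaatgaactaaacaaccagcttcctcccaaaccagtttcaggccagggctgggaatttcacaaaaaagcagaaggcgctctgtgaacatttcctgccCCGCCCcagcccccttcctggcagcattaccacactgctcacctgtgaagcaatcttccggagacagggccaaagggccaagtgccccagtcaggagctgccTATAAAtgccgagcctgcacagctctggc
S100A4: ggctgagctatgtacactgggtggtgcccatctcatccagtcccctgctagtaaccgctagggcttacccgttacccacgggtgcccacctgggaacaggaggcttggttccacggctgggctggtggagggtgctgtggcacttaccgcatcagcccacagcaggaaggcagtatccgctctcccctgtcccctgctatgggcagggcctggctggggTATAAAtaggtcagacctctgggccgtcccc
S100A11: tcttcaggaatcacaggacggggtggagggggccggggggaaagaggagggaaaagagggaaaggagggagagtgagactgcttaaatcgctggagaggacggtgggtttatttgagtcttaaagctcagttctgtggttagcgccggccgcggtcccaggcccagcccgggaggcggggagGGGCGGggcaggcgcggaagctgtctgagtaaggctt

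The TATA box letters began 29 bases before the start of S100A9 and 31 bases before that of S100A4, while S100A11 held none. The GC box letters began 131 bases before the start of S100A9 and 68 bases before the RefSeq start of S100A11, counted over the 31 bases that are not printed. Whole windows of 250 bases, S100A11 included, were searched on both strands in the RefSeq table for all 10 members. TATAAA stood in at least 1 window of 5 members, and in 10.7% of all 35116 promoters. GGGCGG stood in at least 1 window of 5 members, and in 42.6% of all promoters. The letters of an AP-1 site, TGANTCA, were present in 1 member, S100A2, and those of a STAT site, TTCNNNGAA, in 0 members. Each stood in 6.57% of all promoters. S100A2, S100A8 and S100A13 have more than 1 window, which gives a member more chances of a match. A count of members is therefore in another unit than a share of promoters, and nothing is read from the pair. The motifs can overlap each other, and a match is only a match of letters. The number of CG pairs in the window was 24 for S100A6 and for S100A10, 15 for S100A11, 7 for S100A4 and 4 for S100A9, beside a median of 11 over all promoters.

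On GRCh37, 9 of the 10 members lie on chromosome 1, all on the minus strand except S100A9, and S100P lies on chromosome 4 (chr4:6695605-6698897). S100A10 (chr1:151955391-151966335) and S100A11 (chr1:152004982-152020383) stand at the low end of the cluster. S100A9 (chr1:153330330-153333499) and S100A8 (chr1:153362508-153363549) follow, and S100A6 (chr1:153507075-153508720), S100A4 (chr1:153516089-153522612), S100A2 (chr1:153533584-153540366), S100A14 (chr1:153586731-153589462) and S100A13 (chr1:153591263-153603836) come last. On these GENCODE positions S100A4 overlaps S100A3 on the same strand, and S100A13 overlaps S100A1 on the opposite strand. The LNCaP table places S100A4 (chr1:153516095-153518282) and S100A3 (chr1:153519809-153521734) apart, while S100A13 and S100A1 still overlap there. Strand was not stated for the libraries, so reads in the S100A13 and S100A1 overlap cannot be told apart by strand. For S100A4 and S100A3, on the same strand, it could not separate reads in any case.

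PAX6 itself was at 0.839, 1.23 and 1.57 FPKM (fragments per kilobase of transcript, scaled to the library's size) in the shCON libraries and at 0.0153, 0.274 and 0.0778 FPKM in the shPAX6 libraries, so the groups did not overlap (log2 difference −2.69, SE 0.49, limma adjusted p = 0.054). In LNCaP cells it had 11 counts in control and 4 in ENZ. The shPAX6 1 library stood apart by transcript length. Against the shCON mean, the median log2 difference of features under 1000 bases was 0.55 in shPAX6 1, −0.37 in shPAX6 2 and 0.0049 in shPAX6 3, and that of features over 4000 bases was −0.60, 0.21 and −0.13. The longest annotated transcript of every member but S100A13 and S100A14 is under 1000 bases. Of the luminal markers, KLK2, FOLH1 and TMPRSS2 were at 0 in all DU145 libraries, and all 6 markers had counts in LNCaP cells. Of 4 epithelial markers, KRT8 was at 918 to 993 FPKM in shCON and 635 to 947 FPKM in shPAX6, and KRT18 at 589 to 643 and 492 to 861 FPKM, while in LNCaP cells KRT8 had 490 counts in control and 405 in ENZ and KRT18 had 2806 and 2454. CDH1 (E-cadherin) was at 6.27, 5.23 and 6.91 FPKM in shCON and fell to 0.654, 1.56 and 1.57 FPKM in shPAX6 (log2 difference −2.28, SE 0.34, limma adjusted p = 0.033). EPCAM was at 11.5 to 11.7 FPKM in shCON and 6.71 to 7.08 FPKM in shPAX6 (−0.75, SE 0.14, adjusted p = 0.054). The part of these markers in the S100 differences was not tested. Of 9 myeloid markers, PTPRC and MPO were at 0 in all DU145 libraries, and the summed level of the list was 36.8 to 39.6 FPKM in shCON and 24.8 to 26.7 FPKM in shPAX6, nearly all of it CD68.

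A small set of members made up nearly all of the S100 RNA of DU145 cells. S100A6, S100A11, S100A10 and S100A13 together held 98.2% to 99.0% of the members' summed FPKM in each of the 6 libraries. S100A6 (calcyclin, which binds the ubiquitin ligase adaptor CACYBP) was at 1049, 1171 and 983 FPKM in shCON and at 1999, 829 and 1233 FPKM in shPAX6. The library shPAX6 1 was above and shPAX6 2 below every shCON library, and the log2 difference of the groups was 0.25 (SE 0.31). Among 18687 protein-coding genes present in both tables it ranked 48th to 55th in shCON.

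S100A11 (calgizzarin, a partner of annexin A1) was at 676, 730 and 658 FPKM in shCON and at 1282, 633 and 899 FPKM in shPAX6, with a log2 difference of 0.39 (SE 0.25). S100A10 (p11, which joins annexin A2 at the plasma membrane and has lost the ability to bind calcium) was at 304, 348 and 333 FPKM in shCON and at 667, 316 and 441 FPKM in shPAX6, with a log2 difference of 0.47 (SE 0.26). S100A13, which helps FGF1 and IL1A leave the cell without a signal peptide, was at 142, 161 and 131 FPKM in shCON and at 292, 120 and 174 FPKM in shPAX6, with a log2 difference of 0.34 (SE 0.30). All of these groups overlapped, and in each gene the order of the shPAX6 libraries was the same, with shPAX6 1 the highest and shPAX6 2 the lowest.

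S100A9, the subunit that with S100A8 forms calprotectin, was the member that differed most. It was at 4.32, 5.06 and 5.20 FPKM in shCON and at 0.802, 0.507 and 0.375 FPKM in shPAX6. The lowest shCON library was above the highest shPAX6 library, the mean was 8.66-fold lower in shPAX6, and the log2 difference was −2.95 (SE 0.29). Each shPAX6 library was below the shCON mean, by −2.45, −3.03 and −3.38 on the log2 scale. S100A8 was listed at 0 in all 6 libraries, so S100A9 RNA was measured while its partner was listed at 0. The share of genes with a lower level than S100A9 was 57.0% to 60.3% in shCON and 37.3% to 43.5% in shPAX6. The sum of the myeloid markers was lower in shPAX6 too, and CD14 overlapped between the groups at 0.749, 0.845 and 0.908 FPKM in shCON and 0.922, 0.426 and 0.353 FPKM in shPAX6. Their part in the S100A9 difference was not tested, and fewer cells holding the RNA cannot be told apart from less RNA per cell.

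**Figure D1:**
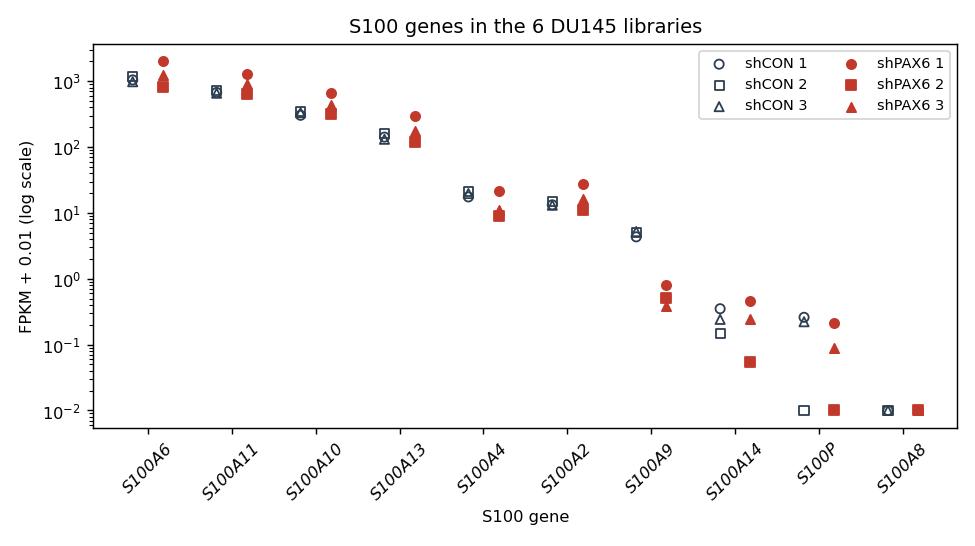
Level of each S100 gene in the 6 DU145 libraries, as FPKM + 0.01 on a log axis, with open symbols for shCON and filled symbols for shPAX6 (n = 3 each, 1 point per library, with no error bars). The groups are separate in S100A9, at 4.32 to 5.20 against 0.375 to 0.802 FPKM, and overlap in the other members with a value.

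S100A4 (metastasin, which binds the heavy chain of non-muscle myosin, MYH9) was at 17.5, 21.2 and 19.7 FPKM in shCON and at 21.6, 8.87 and 11.2 FPKM in shPAX6. The libraries shPAX6 2 and shPAX6 3 were below every shCON library and shPAX6 1 was above them, so the groups overlapped (log2 difference −0.58, SE 0.31). Without shPAX6 1 the difference was −0.95 (SE 0.15). S100A2, which is expressed in basal epithelium and binds p53, was at 13.3, 15.0 and 13.1 FPKM in shCON and at 27.1, 11.2 and 16.5 FPKM in shPAX6, with a log2 difference of 0.31 (SE 0.30). The ratio of S100A4 to S100A2 within a library was 1.32, 1.42 and 1.50 in shCON and 0.798, 0.795 and 0.677 in shPAX6. S100A4 was therefore the higher of the pair in all 3 shCON libraries and the lower in all 3 shPAX6 libraries, a ratio chosen after its values were seen.

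The other 2 members with a value were near the limit of the table. S100A14, an epithelial S100 protein, was at 0.341, 0.138 and 0.232 FPKM in shCON and at 0.457, 0.0453 and 0.236 FPKM in shPAX6. S100P, which binds ezrin, was at 0.250, 0 and 0.213 FPKM in shCON and at 0.201, 0 and 0.0799 FPKM in shPAX6. With S100A8 they were below the mean of 0.5 FPKM required for a fit, so 7 of the 10 members entered it. In the shCON libraries the order was S100A6, S100A11, S100A10, S100A13, S100A4, S100A2, S100A9, S100A14, S100P and S100A8, and of neighbours in that order only S100A14, S100P and S100A8 had ranges that met, with S100P at 0 in shCON 2.

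Of the 7 members in the fit, 1 was called at an adjusted p under 0.05, S100A9, beside 1.2% of all 13574 features. The groups did not overlap in 1 of the 7, again S100A9, beside 26.7% of all features. The call of S100A9 was lost when any shCON library or shPAX6 3 was left out, with log2 differences between −3.20 and −2.74 over the 6 fits that leave out a library. Since these comparisons helped to choose the genes, nothing is read from either count. The differences were above 0 in 5 members and below 0 in 2, with a median of 0.31 (without shPAX6 1, S100A2 and S100A6 were at −0.02 and −0.07), while the median over all features was −0.12 and 62.9% of them were lower in shPAX6.

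The spread of most members followed the shPAX6 library. Against the shCON mean, the log2 differences of S100A2, S100A6, S100A10, S100A11 and S100A13 were 0.90 to 1.02 in shPAX6 1, −0.36 to −0.05 in shPAX6 2 and 0.21 to 0.43 in shPAX6 3. The shCON libraries themselves had a log2 SD of 0.077 to 0.15 in those genes. After the dependence on transcript length was removed from each library, a step added after seeing the data, S100A6 was at 0.17, 0.00 and 0.19 and S100A11 at 0.18, 0.21 and 0.39 in shPAX6 1, 2 and 3. S100A10 was then at 0.28, 0.31 and 0.40. S100A13, whose longest transcript is longer, kept a wide spread, at 0.75, −0.06 and 0.22. S100A4 was then below the shCON mean in all 3 libraries, at −0.58, −0.75 and −0.82, and S100A9 at −3.18, −2.69 and −3.38.

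**Figure D2:**
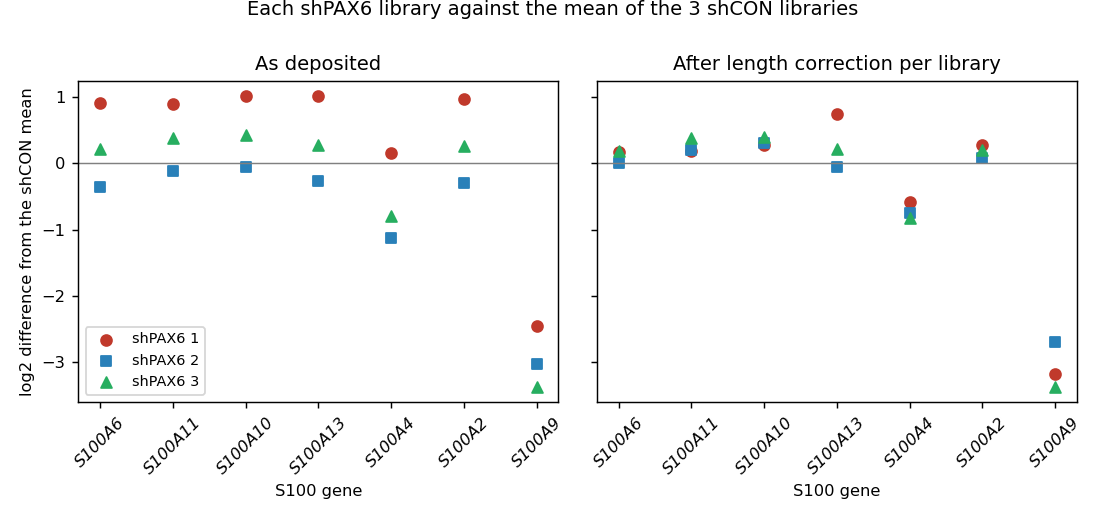
Difference of each shPAX6 library from the mean of the 3 shCON libraries, in log2 units, for the 7 members in the fit, with deposited values on the left and length-corrected values on the right (1 point per library). On the left shPAX6 1 lies highest in every gene, at 0.90 to 1.02 in 5 of them, and on the right S100A4 lies between −0.82 and −0.58.

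Dividing by S100A11, whose longest annotated transcript has 563 bases, gave the levels on a scale within each library. It is near in length to S100A6 (673 bases), S100A10 (671 bases), S100A4 (755 bases) and S100A9 (573 bases), but not to S100A13 (2184 bases). S100A6 was at 1.49 to 1.60 times S100A11 in shCON and at 1.31 to 1.56 times in shPAX6. S100A10 was at 0.450 to 0.506 times in shCON and 0.490 to 0.520 times in shPAX6, and S100A13 at 0.200 to 0.220 and 0.189 to 0.228 times. These ranges overlapped. S100A4 was at 0.0259 to 0.0299 times S100A11 in shCON and at 0.0125 to 0.0169 times in shPAX6, and S100A9 at 0.00639 to 0.00790 and 0.000417 to 0.000801 times, with no overlap in either. This scale was chosen after the values were seen. S100A11 itself had a log2 difference of 0.39, against a median of −0.12 over all features, so dividing by it lowers the shPAX6 values on average. How many of all features separate on this scale was not counted, so nothing is read from the separation of S100A4 or S100A9 here.

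**Figure D3:**
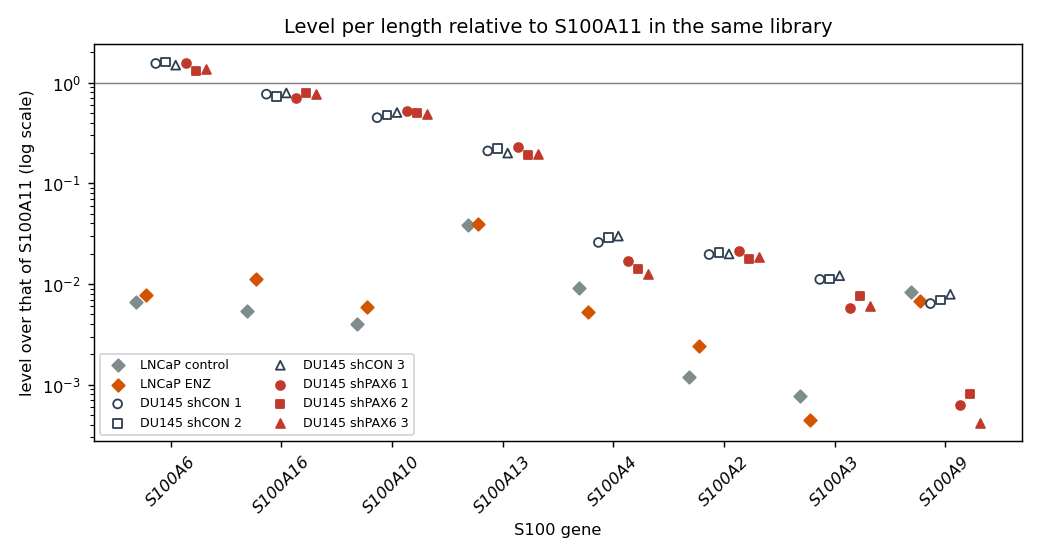
Level of 8 S100 genes divided by the level of S100A11 in the same library, on a log axis, from FPKM in 6 DU145 libraries and TPM in 2 LNCaP libraries (1 point per library). S100A6 is at 1.31 to 1.60 in DU145 and at 0.00665 and 0.00772 in LNCaP, while S100A4, S100A3 and S100A9 are lower in every shPAX6 library than in every shCON library. The share of all features that separate on this scale was not counted.

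In LNCaP cells 9 of the 10 members had counts and 4 passed a mean of 1 CPM (counts scaled to the library total): S100A11, S100A13, S100A14 and S100P. S100A11 had 2093 counts in control and 1803 in ENZ, which are 180 and 166 TPM (counts scaled for gene length and then for the library) and a log2 ratio of CPM of −0.03 with a 95% exact interval of −0.12 to 0.07. It held 91.7% and 90.1% of the members' summed TPM. S100A13 had 192 and 169 counts, 6.98 and 6.60 TPM, with a log2 ratio of 0.01 (−0.30 to 0.31). The intervals cover counting error only, and with 1 library per arm no difference between control and ENZ can be tested.

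S100A14 and S100P had the highest ratios of the members past 1 CPM. S100A14 had 15 counts in control and 29 in ENZ, 0.721 and 1.50 TPM, with a log2 ratio of 1.04 (0.19 to 2.15). S100P had 34 and 52 counts, 3.40 and 5.59 TPM, with a log2 ratio of 0.77 (0.15 to 1.47). Both intervals lay above 0, but they cover counting error only and the genes were chosen with these values known. How many of all genes have such an interval was not counted, so nothing is read from it. Of the 4 members past 1 CPM, 1 lay past 2-fold, S100A14, beside 11.4% of all 14767 such genes, and nothing is read from that count because the comparison helped to choose the genes. S100A14 was at 0.733 CPM in control and 1.62 CPM in ENZ, so it passed the filter only through ENZ, where it was higher. S100A6, S100A9 and S100A4 had a higher control level than S100A14 and did not pass. The median log2 ratio of the 4 was 0.39, which this filter shaped, and that of all 14767 genes −0.15. Over the 9 members with counts the median was 0.17.

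The rest of the members were at the edge of detection. S100A6 had 16 counts in both libraries, with a log2 ratio of 0.17 (−0.91 to 1.28). S100A10 had 15 and 19 counts (0.48, −0.52 to 1.61), and S100A9 had 17 and 12 counts (−0.28, −1.51 to 0.84). S100A4 had 18 and 9 counts (−0.70, −2.15 to 0.42), and S100A2 had 4 and 7 counts (0.73, −0.98 to 3.22). Each of these 5 intervals included 0, so no difference was detectable at this depth. S100A8 had 0 counts in both, which allows up to 0.147 CPM in control and 0.167 CPM in ENZ, the level of 3 counts.

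**Figure D4:**
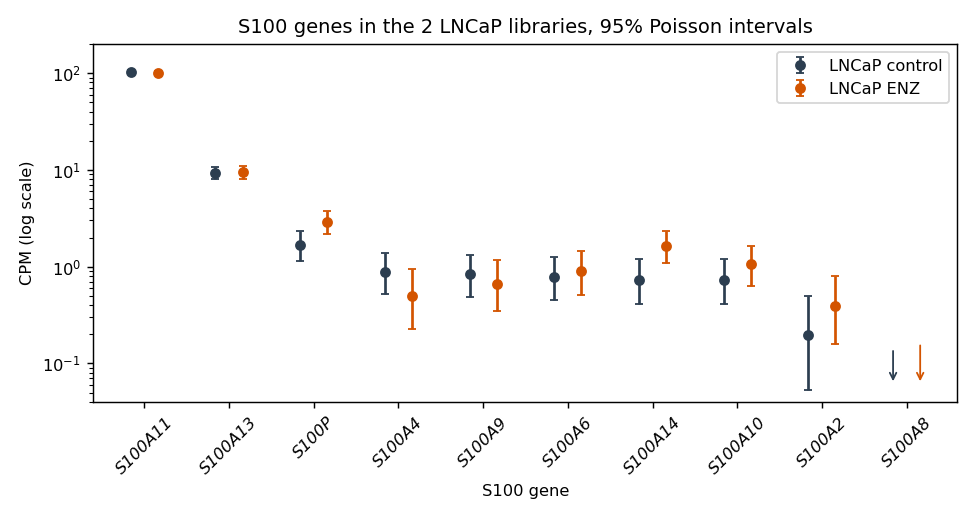
CPM of the 10 S100 genes in the LNCaP control and ENZ libraries (1 library each) on a log axis, with bars for the 95% exact Poisson interval of the count, which covers counting error only, and arrows from the level of 3 counts for S100A8 at 0. S100A11 is at 102 and 100.5 CPM, S100A14 at 0.733 and 1.62 CPM and S100P at 1.66 and 2.90 CPM.

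The lines differed in which S100 genes they held. The tables were normalized separately, so only ranks and ratios within a library are set side by side, without a test, and the libraries were not made as one experiment. S100A11 ranked 215th and 232nd of 18687 shared protein-coding genes in LNCaP control and ENZ and 75th to 79th in DU145 shCON. S100A6 ranked 10522nd and 9808th in LNCaP against 48th to 55th in DU145 shCON, and S100A10 ranked 11224th and 10250th against 173rd to 197th. S100A13 ranked 6091st and 5627th against 461st to 550th. S100P and S100A14 had the opposite order. S100P had 55.0% and 67.3% of genes below it in LNCaP and at most 33.9% in DU145 shCON, and S100A14 had 39.9% and 49.1% in LNCaP and 31.5% to 35.3% in DU145 shCON. S100A9 had 45.6% and 46.3% of genes below it in LNCaP, which lies between its shPAX6 and shCON ranges in DU145. Its ratio to S100A11 did not lie between them, at 0.00836 in LNCaP control and 0.00685 in ENZ. That ratio was 0.00639 to 0.00790 in shCON and 0.000417 to 0.000801 in shPAX6, so the placement depends on the scale. ANXA2, the membrane partner of S100A10, followed the same order as S100A10, at 9879th and 9925th in LNCaP and 19th to 25th in DU145 shCON.

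The other 11 S100 genes of the DU145 table were also read from the fit. S100A16, which lies beside S100A14, was at 520, 535 and 520 FPKM in shCON and at 897, 504 and 694 FPKM in shPAX6 (log2 difference 0.37, SE 0.22, limma adjusted p = 0.42), an order of libraries like that of the abundant members. S100A3, the gene that overlaps S100A4 on the GENCODE positions, was at 7.51, 8.19 and 7.95 FPKM in shCON and at 7.36, 4.77 and 5.40 FPKM in shPAX6. Its groups did not overlap (−0.45, SE 0.20, limma adjusted p = 0.29), beside 26.7% of all features. Without shPAX6 1 it was called (−0.62, SE 0.15, adjusted p = 0.045), in a fit that called 920 of all 13574 features, against 163 with every library. S100A1, a muscle and heart calcium sensor, was at 2.09, 1.92 and 1.05 FPKM in shCON and at 0.999, 1.55 and 1.33 FPKM in shPAX6 (−0.32, adjusted p = 0.66). None of these 3 was called by limma, beside 1.2% of all features, and 0 were under an unadjusted p of 0.05, beside 18.3% of all features. S100A7, S100A7A, S100A7L2, S100B, S100G and S100Z were at 0 in all 6 libraries, and S100A5 and S100A12 were at or under 0.497 FPKM. In LNCaP cells S100A16 had 32 and 57 counts, a log2 ratio of 0.98 (0.37 to 1.69), S100A1 had 18 and 26 counts (0.66, −0.20 to 1.67), S100A3 had 2 and 1, S100G had 2 and 0, and the others had 0.

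Of 16 genes whose proteins bind or receive S100 proteins, 13 entered the DU145 fit and 0 were called by limma, beside 1.2% of all features. In the same fit 3 were under an unadjusted p of 0.05, beside 18.3% of all features. The 3 were higher in shPAX6 and their groups did not overlap. Of all 13574 features, 910 were apart and higher, and 26.7% were apart in either direction. The list's median log2 difference was 0.04, against −0.12 over all features. ANXA1, the partner of S100A11, was at 233, 216 and 201 FPKM in shCON and at 303, 324 and 325 FPKM in shPAX6 (log2 difference 0.55, SE 0.13, adjusted p = 0.086). SUGT1, a chaperone adaptor bound by S100A6, was at 10.3, 9.51 and 8.44 FPKM in shCON and at 15.3, 13.5 and 17.1 FPKM in shPAX6 (0.69, SE 0.16, adjusted p = 0.084). ANXA2 was at 1699, 1711 and 1426 FPKM in shCON and at 2295, 1990.5 and 2267 FPKM in shPAX6 (0.44, SE 0.17, adjusted p = 0.23). Both ANXA1 and SUGT1 were called by limma without shPAX6 1 (adjusted p = 0.029 and 0.043) and without shPAX6 2 (adjusted p = 0.048 and 0.035). Those fits called 920 and 903 of all 13574 features, against 163 with every library. Neither gene was called when any other library was left out.

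Of the remaining partners in the fit, AHNAK had a log2 difference of 0.48 (SE 0.44, limma adjusted p = 0.63), above that of ANXA2, and its groups overlapped. The others had smaller differences. MYH9, bound by S100A4, had a log2 difference of −0.14 (adjusted p = 0.82), CACYBP of 0.07 (adjusted p = 0.85), EZR, the ezrin bound by S100P, of 0.04 (adjusted p = 0.93) and S100PBP, a nuclear binder of S100P, of −0.31 (adjusted p = 0.60), all by limma. Of the receptors of extracellular S100A8 and S100A9, AGER was at 2.82 FPKM in shCON and 2.88 FPKM in shPAX6 (−0.02, adjusted p = 0.98) and TLR4 was at 0 in all DU145 libraries and had 0 counts in LNCaP. The ratio of S100A10 to ANXA2 was 0.179, 0.203 and 0.233 in shCON and 0.290, 0.159 and 0.194 in shPAX6, and the groups overlapped. In LNCaP cells 1 of 11 partners past 1 CPM lay past 2-fold, beside 11.4% of all 14767 such genes. This was AHNAK, a large scaffold bound by S100A10 and ANXA2, with 6192 and 1998 counts (log2 ratio −1.44, −1.52 to −1.37). IQGAP1, a scaffold bound by S100P, followed with 2231 and 1108 counts (−0.82). ANXA1 had 23 and 24 counts (0.23), EZR 2129 and 1989 (0.09), and ANXA2 63 and 40 (−0.45).

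Of the 12 annexins, calcium-dependent membrane binders, 10 entered the DU145 fit, 3 higher and 7 lower, beside 62.9% of all features lower. Of these, limma called 0, beside 1.2% of all features, and 4 were under an unadjusted p of 0.05, beside 18.3% of all features. The list's median log2 difference was −0.17. ANXA1 and ANXA2 had the largest positive differences. ANXA11 was at 49.3, 61.1 and 62.1 FPKM in shCON and at 43.0, 35.9 and 44.6 FPKM in shPAX6 (−0.48, SE 0.15, adjusted p = 0.17), and ANXA9 had a log2 difference of −0.36 (adjusted p = 0.57). In LNCaP cells 8 annexins passed 1 CPM and 0 lay past 2-fold, beside 11.4% of all 14767 such genes. ANXA9 had 311 and 420 counts (log2 ratio 0.62, 0.41 to 0.84) and ANXA6 had 2335 and 1741 (−0.23, −0.32 to −0.14).

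Apart from the S100 genes, the span of chromosome 1 that holds them was nearly silent in both lines. The span runs over 1651183 bases (chr1:151955386-153606568) from S100A10 to S100A13 and holds 17 S100 genes and 62 other genes, many of them of the cornified envelope of skin. Of the 62, the DU145 table lists 45, of which 38 were at 0 in all 6 libraries and 3 passed 0.5 FPKM. Those 3 were FLG (filaggrin), HRNR (hornerin) and IVL (involucrin). Of them limma called 0, beside 1.2% of all features, and 1, IVL, was under an unadjusted p of 0.05, beside 18.3% of all features. FLG was at 1.02, 0.793 and 1.23 FPKM in shCON and at 0.0858, 2.05 and 0.559 FPKM in shPAX6 (log2 difference −0.78, SE 0.79, adjusted p = 0.67), with shPAX6 1 the lowest and shPAX6 2 the highest, the reverse of the order in the abundant S100 genes. HRNR had a log2 difference of 0.06 (adjusted p = 0.97). IVL was at 0.343, 0.505 and 0.511 FPKM in shCON and at 0.847, 0.965 and 0.641 FPKM in shPAX6 (0.73, SE 0.30, adjusted p = 0.25). The IVL groups did not overlap, beside 910 of all 13574 features that were apart and higher. In LNCaP cells 8 of the 62 had any count, 18 counts in control and 5 in ENZ together, and 0 passed 1 CPM. In the same span S100A11, S100A10, S100A6, S100A16 and S100A13 were above 100 FPKM in every DU145 library.

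**Figure D5:**
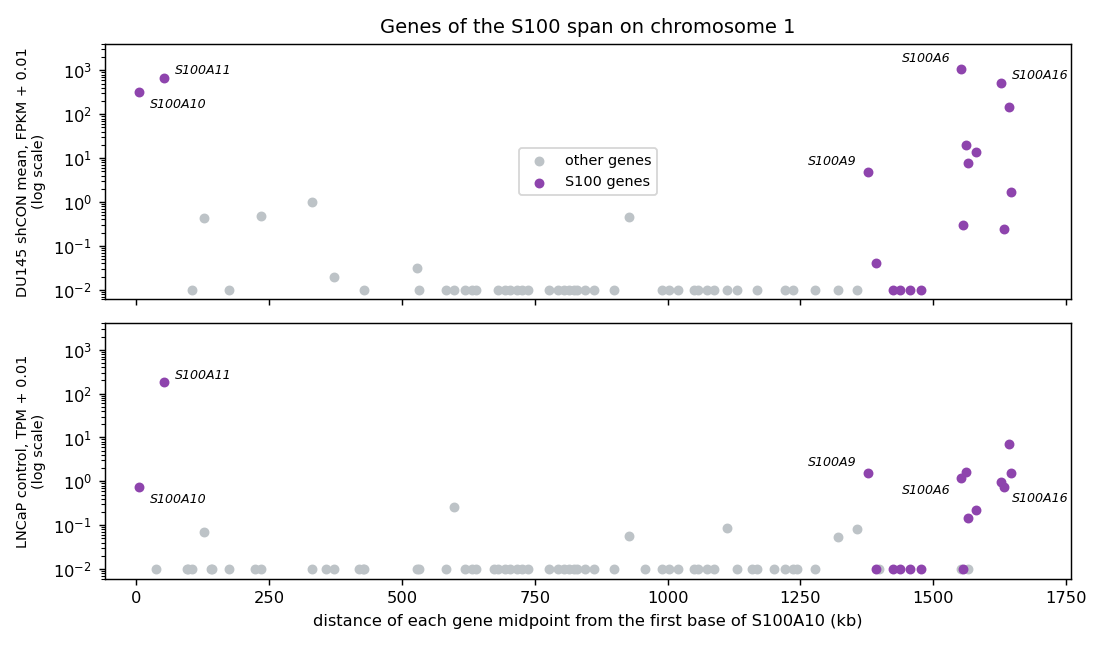
Level of each gene listed in the table, plotted at its midpoint along the span of chromosome 1 that holds the S100 genes, in kb from the first base of S100A10, as the DU145 shCON mean (FPKM + 0.01, n = 3, above) and the LNCaP control library (TPM + 0.01, below), both on log axes and with no error bars. S100 genes at the ends of the span reach 1068 FPKM in DU145, while the genes between them are at or near 0.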

How the data were processed

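The members, gene lists and tests were chosen with earlier results of these data known. RNA-seq of 6 DU145 and 2 LNCaP libraries was used, and the 6 ATAC-seq samples were not used here. Samples were grouped by the labels, and 0 columns belonged to other samples. According to the methods, cDNA was primed with oligo-dT and sequenced as paired ends, reads were aligned to GRCh37 with HISAT2, abundance was taken from StringTie and differences were tested with DESeq2. The labels describe another library kit than the methods, and the methods give more LNCaP replicates than the labels. For LNCaP the authors deposited counts per gene, whose counter is not given in the sources used here, and TPM. For DU145 the deposited values name no unit and were treated as FPKM, computed by the authors, so their depth is unknown. The LNCaP libraries held 20468001 and 17945722 counts, and the floor was 3 counts.

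DU145 values were fitted with limma 3.58.1 in R 4.3.3 (lmFit, eBayes with an intensity trend, two-sided) on log2(FPKM + 0.1), keeping the 13574 features that averaged 0.5 FPKM or more, and p-values were Benjamini-Hochberg adjusted over all of them, with a threshold of 0.05. Log2 differences of low genes are understated by the pseudocount. LNCaP log2 ratios are of CPM + 0.1, with 95% exact Clopper-Pearson intervals of the split of counts, and 2-fold is counted over genes with a mean of at least 1 CPM. The scripts were tested on simulated data. Nothing in the labels says that replicates were separate cultures, so p-values measure the spread between these libraries, which may be technical. The replicate numbers did not pair the libraries and were left out of the fit. Positions are from GENCODE on GRCh37 and from the LNCaP table, and promoters from RefSeq's GRCh38.p14 table. Near-identical copies of S100A11 could share its reads.

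All members and other S100 genes were named, with PAX6 and the partners ANXA2, ANXA1, MYH9, CACYBP, EZR, AGER and TLR4. Of the partner, annexin and chromosome 1 lists, genes called in DU145 and the 2 largest changes in each direction were named, and for S100A9 the 3 features with the nearest profiles. Alternatives were other pseudocounts, filters, scalings, GC and length corrections, the replicate block, leaving out each library, and, for LNCaP, TMM factors of edgeR 4.0.16 and totals without the most counted genes.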

Additional observations from a re-analysis of the deposited data

How the results depend on the processing

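Among all DU145 features, the number called was 163 as reported, 108 with no filter, 100 with median centring, 84 after rescaling each library to the same FPKM total, 700 after length correction, and 0 to 920 when a library was left out: 0 without shCON 1 or shCON 3, 5 without shCON 2, 10 without shPAX6 3, 920 without shPAX6 1 and 903 without shPAX6 2. The higher and lower calls were 24 and 139 as reported, 74 and 162 with quantile normalization and 28 and 72 with median centring. Blocking on the replicate number called 0 with and without GC correction, and 1568 features had an unadjusted p under 0.05 in that fit against 2480 without it. The same-number correlations were −0.17, −0.37 and 0.052, so the numbers do not pair the libraries. S100A9 was called under 12 of 18 alternatives, with log2 differences from −3.20 to −1.91. It was not called with the block, without any shCON library in turn or without shPAX6 3. S100A4 was called after length correction and without shPAX6 1. The members' DU145 median was −0.02 to 0.62 when a library was left out (lowest without shPAX6 1, highest without shPAX6 2). In those fits 0 to 1 of the other S100 genes, 0 to 2 partners and 0 to 1 annexins were called. In LNCaP 1054 genes lay past 2-fold with a pseudocount of 1, 6120 with no filter and 874 with a mean of at least 5 CPM, and the members' median was −0.0099 with the last filter. S100A14 was not past 2-fold with a pseudocount of 1 (0.59), as TPM (0.96) or under that filter, and S100A11 was at 0.13 relative to the median gene. Except where an alternative's own construction changes the genes or libraries, the cause was not tested. No called result changed direction.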

Other observations

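The DU145 features whose profile over the 6 libraries lay nearest to that of S100A9, after each was centred on its own mean of log2(FPKM + 0.1), were MUC1, OASL and PALM. MUC1, a membrane mucin, was at 23.4, 28.1 and 28.5 FPKM in shCON and at 3.67, 2.19 and 2.54 FPKM in shPAX6, with a root mean square distance of 0.218 in log2 units and a log2 difference of −3.23 (SE 0.22). OASL, an interferon-induced protein, was at 14.8, 15.1 and 18.7 FPKM in shCON and at 2.73, 2.10 and 2.36 FPKM in shPAX6, with a distance of 0.260. PALM (paralemmin), a membrane-bound protein of cell processes, was at 7.25, 9.02 and 8.94 FPKM in shCON and at 1.29, 1.05 and 1.20 FPKM in shPAX6, with a distance of 0.268. All 3 were lower in each shPAX6 library than in each shCON library, which follows from their choice by nearness to S100A9 over these same libraries.

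Several S100 partners with large transcripts had the library order opposite to that of S100A6, S100A10 and S100A11. These were picked after their values were seen. AHNAK was at 25.9, 98.0 and 45.3 FPKM in shPAX6 1, 2 and 3, beside 28.6 to 42.0 FPKM in shCON, IQGAP1 was at 19.4, 58.1 and 32.3 FPKM beside 28.7 to 39.1 FPKM, and MYH9 was at 138, 262 and 218 FPKM beside 210 to 235 FPKM. In each, shPAX6 1 was below and shPAX6 2 above every shCON library.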
